A study of Mus musculus with 4 samples.

Results

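The integrated stress response was examined through 9 genes grouped under its name, in fibroblasts cultured from mouse embryos (MEFs). The genes were taken by name: Atf4, Atf3, Ddit3, Ppp1r15a, Trib3, Asns, Sesn2, Xbp1 and Herpud1. All probe sets that the platform annotation gives exactly 1 of these symbols were used, which made 18 of the 22690 probe sets on an Affymetrix MOE430A array and 9 of the 12393 genes with a probe set of 1 symbol. A probe set is a group of short probes read together as 1 signal, in arbitrary units. The 2 mTert samples had received the retroviral vector pBabePuro with the catalytic subunit of mouse telomerase. The 2 control samples had received the same vector empty, so both groups carry the vector and its puromycin resistance. Each sample was hybridised to 1 array. Strain, passage, growth conditions and whether samples of a group came from separate cultures are not given in the sources used here, so p-values reflect no more than the variation among these arrays, part of which may be technical.

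In this response, stress-sensing kinases phosphorylate the initiation factor eIF2α. General translation then falls while the messenger RNA of the transcription factor ATF4 is translated better. ATF4 raises transcription of genes for amino acid supply and for further regulators, among them ATF3, CHOP (the product of Ddit3), TRIB3 and GADD34 (the product of Ppp1r15a), a phosphatase subunit that reverses the eIF2α mark. XBP1 belongs to the parallel unfolded protein response of the endoplasmic reticulum. In fibroblasts Atf3 is also an immediate-early gene, one of those switched on within minutes of serum or growth factor stimulation. The arrays read RNA levels, and neither eIF2α phosphorylation nor protein was measured.

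The promoter windows of the members are shown first because that of Atf3 shares a searched element with those of Asns, Trib3 and Herpud1. RefSeq windows of 300 bases, 250 before and 50 after each start site (GRCm38.p6), were matched for 9 of 9 members and searched on both strands. The core of the C/EBP-ATF response element (CARE), which ATF4 dimers bind, was searched as TGATGNAAN. It was present in the windows of 4 of 9 members, Atf3, Asns, Trib3 and Herpud1, against 3.95% of all 32851 promoter windows. The members were chosen as genes of the integrated stress response or the parallel unfolded protein response, so the higher share describes them and tests nothing. In the sequences that follow, given 5′ to 3′ on the gene's strand, capitals mark this core, which reads TGATGCAAG in Atf3, TGATGAAAC in Asns, TGATGTAAA in Trib3 and TGATGCAAC in Herpud1 and lies on the opposite strand in all but Asns. The whole Atf3 window (chr1:191183284-191183583, minus strand) is given, then the core with its flanks for Asns (chr6:7693184-7693272, minus strand), Trib3 (chr2:152344011-152344087, minus strand) and Herpud1 (chr8:94386276-94386364, plus strand).
Atf3: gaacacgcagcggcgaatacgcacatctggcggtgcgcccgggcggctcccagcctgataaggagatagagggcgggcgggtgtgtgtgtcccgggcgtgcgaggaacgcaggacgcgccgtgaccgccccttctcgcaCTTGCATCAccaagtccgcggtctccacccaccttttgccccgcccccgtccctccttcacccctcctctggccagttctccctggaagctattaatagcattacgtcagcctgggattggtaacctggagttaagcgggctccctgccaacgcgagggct
Asns: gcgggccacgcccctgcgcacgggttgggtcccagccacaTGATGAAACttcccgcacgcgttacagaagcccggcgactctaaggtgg
Trib3: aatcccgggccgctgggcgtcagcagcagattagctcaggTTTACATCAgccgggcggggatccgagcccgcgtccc
Herpud1: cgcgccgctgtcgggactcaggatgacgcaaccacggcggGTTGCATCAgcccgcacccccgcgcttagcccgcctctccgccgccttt

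The cyclic AMP response element, a site for the ATF and CREB family, was searched only in its full form TGACGTCA. Sites that differ from it by a base were not counted. The full form was found in the window of 1 member, Ppp1r15a, against 1.79% of all windows. It is in capitals in that window (chr7:45526219-45526518, minus strand), shown because Ppp1r15a had the smallest p after Atf3.
Ppp1r15a: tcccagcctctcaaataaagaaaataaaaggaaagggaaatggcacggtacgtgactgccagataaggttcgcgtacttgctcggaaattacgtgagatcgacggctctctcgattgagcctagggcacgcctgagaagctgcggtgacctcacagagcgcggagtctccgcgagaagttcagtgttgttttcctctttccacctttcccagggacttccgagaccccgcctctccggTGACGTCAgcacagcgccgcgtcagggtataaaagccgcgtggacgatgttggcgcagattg

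The core element lay between bases -111 and -103 from the start site in Atf3, between -113 and -105 in Herpud1, between -23 and -15 in Asns and between 13 and 21 after it in Trib3, counting the start site as base 0. The CArG box of serum response factor, searched by name, was found in the Herpud1 window alone among members, against 1.63% of all windows, and shares no base with the CARE core there. The endoplasmic reticulum stress element ERSE was searched only as CCAAT, then 9 bases of any kind, then CCACG. This form, held by 0.119% of all windows, and the unfolded protein response element TGACGTGG, held by 0.676%, were found in 0 of 9. Other forms of these elements were not searched, so their presence in these windows is not known from this count. These are matches of letters in short windows and describe sequence only.

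The labels were checked on Tert, whose signal was 1164.4 and 845.6 in mTert 1 and 2, both called present, against 128.0 and 84.7 in control 1 and 2, both called absent. As the ratio of geometric means over the arrays, this stands for at least 9.53-fold higher signal with the vector carrying mTert. Between 51.6% and 54.4% of probe sets that are not controls were called present on an array. The recorded amount of labelled cRNA was 15 µg for 3 arrays and 5 µg for control 1. All 10 fibroblast markers on the array, such as Col1a1 and Vim, were called present on every array. Of 11 macrophage and leukocyte markers, 10 were present on each array numbered 2, and 6 on each array numbered 1. Their summed signal was 3169.1 and 13639.4 in mTert 1 and 2, against 2883.8 and 13007.2 in control 1 and 2, so it followed the array number in both groups. Where cell types are mixed, more cells of a type and more RNA per cell cannot be told apart.

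Atf3 was lower in mTert cells and had the smallest p of the members, without passing the test over all probe sets. The gene encodes a bZIP repressor induced by ATF4 and by mitogens. Its 1 probe set had signals of 593.7 and 646.9 in mTert 1 and 2, against 842.5 and 938.7 in control 1 and 2. Both mTert arrays lay below both controls. The mean was 620 ± 37.6 in mTert and 891 ± 68.0 in control (SD, n = 2 each), a log2 difference of -0.52 with a standard error (SE) of 0.14, or 1.43-fold lower. The 95% interval of limma, a linear model with moderated errors, ran from -0.85 to -0.19. The unadjusted limma p was 0.0081, and 48 of the 12396 probe sets tested had a smaller one. After Benjamini-Hochberg adjustment over all of them the limma p was 1.00, so the difference did not pass. With the 5 µg array, control 1, left out, it was -0.60.

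Across the array, limma called 0 of 12396 probe sets at an adjusted p of 0.05 (0%), and 0 of the 16 member probe sets that could be tested. The smallest limma adjusted p of any probe set was 0.188, that of Tert. With 2 arrays per group the fit thus did not call even the gene that the vector carried. Not passing therefore does not show that a smaller difference is absent. At an unadjusted p under 0.05, 0.847% of all probe sets were higher in mTert and 1.25% lower, and among the members only Atf3 was in this fit, on the lower side. The 2 other member probe sets, 1 for Atf4 and 1 for Sesn2, were called present on none of the arrays and were not tested.

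**Figure D1:**
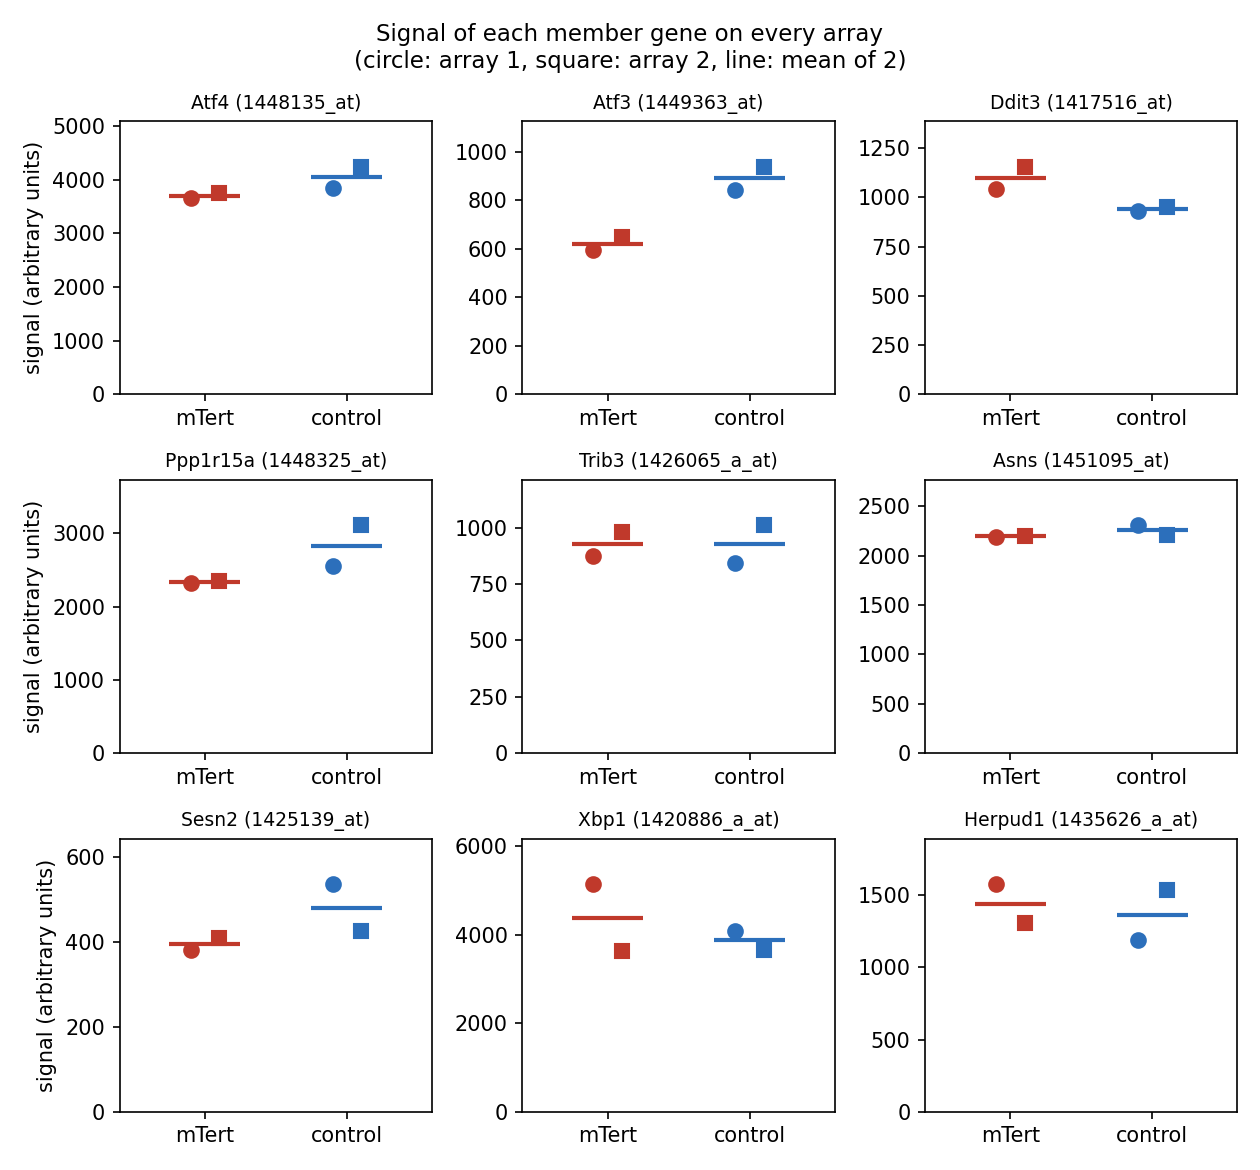
Signal in arbitrary units of the brightest tested probe set of each of the 9 member genes on mTert (left, red) and control (right, blue) arrays, each axis from 0. Circles are arrays numbered 1, squares arrays numbered 2 and lines group means. Atf3 shows the widest gap between groups relative to the spread, with 593.7 and 646.9 in mTert and 842.5 and 938.7 in control.

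Atf4, the factor at the centre of the response, differed little. Its probe set 1448135_at had signals of 3658.3 and 3754.4 in mTert 1 and 2, against 3847.2 and 4247.3 in control 1 and 2. The groups did not overlap, but the log2 difference was only -0.13 (SE 0.09), with a 95% interval from -0.35 to 0.10 (limma adjusted p = 1.00). It was -0.20 without control 1 and -0.054 without control 2. The second probe set, 1438992_x_at, whose suffix marks probes shared with other transcripts, stood at -0.066 (SE 0.13) with overlapping groups. The third, 1439258_at, had signals between 7.7 and 18.5 and was called absent on all arrays.

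Ddit3 lay on the opposite side from Atf3. It encodes CHOP, a C/EBP-related factor tied to cell death under lasting stress. Its signal was 1043.9 and 1156.4 in mTert 1 and 2, against 928.6 and 951.8 in control 1 and 2. Both mTert arrays were above both controls, and it was the only tested member probe set of which this was true. The log2 difference was 0.22 (SE 0.12, 95% interval -0.071 to 0.52, limma adjusted p = 1.00).

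Ppp1r15a was the member with the next smallest p after Atf3, also on the lower side. Its signal was 2316.5 and 2344.7 in mTert 1 and 2, against 2551.1 and 3109.1 in control 1 and 2. Both mTert arrays lay below both controls, while the controls differed from each other by more than control 1 differed from the mTert arrays. The log2 difference was -0.27 (SE 0.12), with a 95% interval from -0.57 to 0.022. Its limma p was 0.064 unadjusted and 1.00 adjusted. With 1 array left out it ranged from -0.42 without control 1 to -0.13 without control 2.

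Trib3 and Asns, both targets of ATF4, were the members whose brightest probe sets differed least between the groups. Trib3 encodes a pseudokinase that restrains AKT and ATF4 signalling. Its probe set 1426065_a_at had 874.5 and 979.7 in mTert 1 and 2, against 843.2 and 1009.6 in control 1 and 2. The controls enclosed the mTert values, and the log2 difference was 0.0046 (SE 0.15, 95% interval -0.35 to 0.36). The second Trib3 probe set, 1456225_x_at, had 729.2 and 567.3 in mTert against 764.9 and 457.1 in control, a log2 difference of 0.12 (SE 0.27). Both arrays numbered 2 were lower than both numbered 1 on it, with a mean log2 difference, number 2 minus number 1, of -0.55, whereas that on 1426065_a_at was 0.21.

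Asns encodes asparagine synthetase, the amidotransferase that makes asparagine from aspartate. Its signal was 2191.7 and 2201.3 in mTert 1 and 2, against 2305.4 and 2206.2 in control 1 and 2. The groups were separate only by the small gap between mTert 2 and control 2. The log2 difference was -0.038 (SE 0.095, 95% interval -0.27 to 0.19), and that of the other probe set, 1433966_x_at, was 0.035 (SE 0.11, 95% interval -0.23 to 0.30). These intervals hold differences of Atf3's sign, and neither reaches its estimate of -0.52. Both overlap the 95% interval of Atf3, which ends at -0.19. The limma adjusted p was 1.00 for each probe set of Trib3 and Asns.

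Sesn2 encodes sestrin 2, a stress-induced protein that inhibits mTORC1 when leucine is low. Its tested probe set, 1425139_at, had signals of 382.1 and 409.7 in mTert 1 and 2, against 536.1 and 425.8 in control 1 and 2. Both mTert arrays were below both controls, but mTert 2 and control 2 were close. The log2 difference was -0.27 (SE 0.17, 95% interval -0.69 to 0.15), and it was -0.11 without control 1, the array with the highest value. The other probe set had signals from 749.9 to 926.6 but was called marginal on control 1 and absent on the others.

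Xbp1 and Herpud1 represent the endoplasmic reticulum branch. Xbp1 encodes a bZIP factor whose messenger RNA is spliced by IRE1, and Herpud1 a membrane protein of the degradation machinery of the endoplasmic reticulum. The brightest Xbp1 probe set, 1420886_a_at, had 5141.2 and 3635.1 in mTert 1 and 2, against 4090.6 and 3651.1 in control 1 and 2. mTert 1 was alone in being high, and the log2 difference of 0.16 (SE 0.17) was -0.089 without it. The other 3 Xbp1 probe sets stood at -0.086 (SE 0.097), 0.063 (SE 0.12) and 0.37 (SE 0.26). The last of these was the dimmest and was called absent on control 2, and it was 0.020 without control 2 and 0.71 without control 1. Groups overlapped on all 4.

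Herpud1 probe set 1435626_a_at had 1576.2 and 1305.2 in mTert 1 and 2, against 1187.7 and 1535.2 in control 1 and 2. On 1448185_at the signals were 1258.3 and 986.6 in mTert, against 1000.7 and 1923.8 in control. The groups overlapped on both probe sets, and control 2 was far above the other arrays on the second. The log2 differences were 0.087 (SE 0.17) and -0.32 (SE 0.31), so the probe sets disagreed in sign. The second was 0.15 without control 2.

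**Figure D2:**
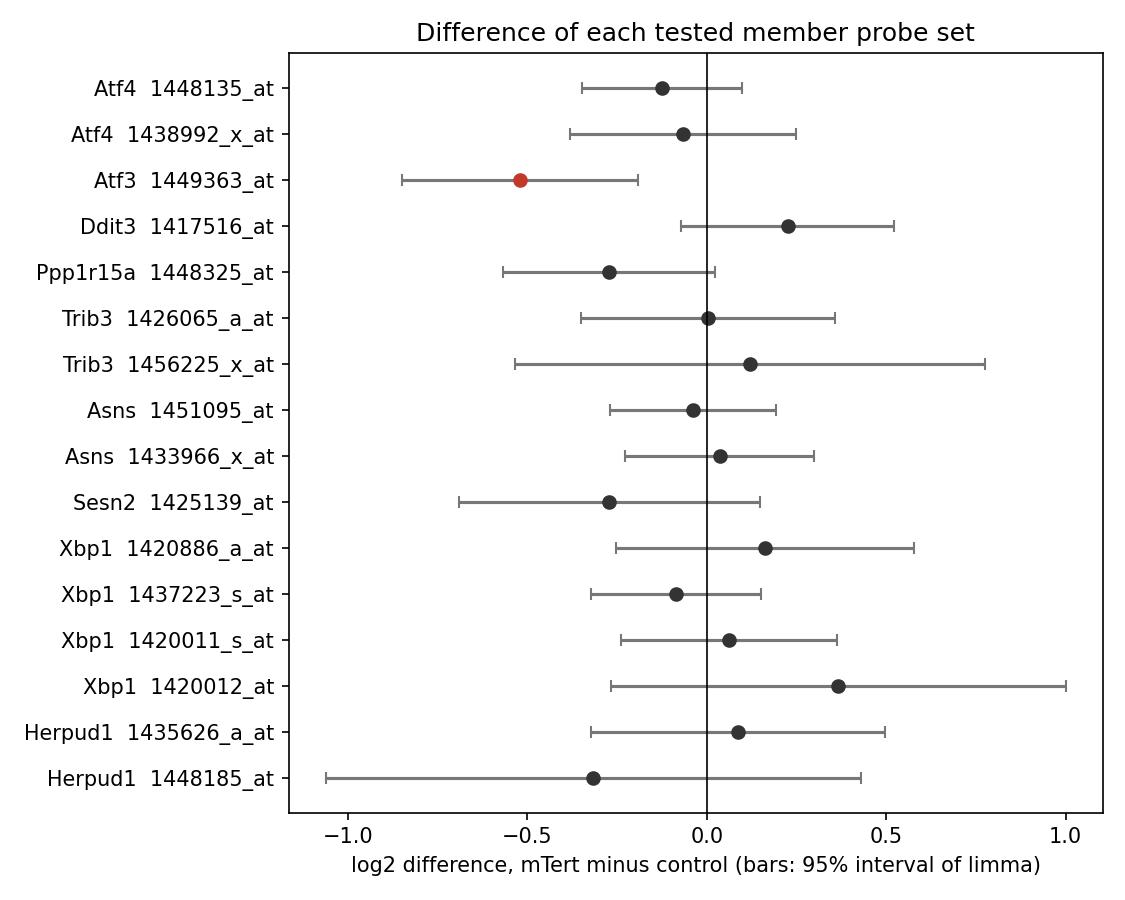
Log2 difference, mTert minus control, of the 16 tested member probe sets, ordered by gene, with the 95% interval of limma as bars. The Atf3 interval (red), from -0.85 to -0.19, is the one that does not reach 0, and the 15 other estimates lie between -0.32 and 0.37.

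Over the 16 tested member probe sets 8 were higher in sign and 8 lower, with a median log2 difference of -0.017 beside 0.0060 over all 12396. Both mTert signals lay below both controls in 5 of them (31.25%), against 12.1% of all probe sets, and above in 1 (6.25%), against 13.4%. The 5 were the probe sets described for Atf3, Atf4, Ppp1r15a, Asns and Sesn2, and of the genes among them with a second tested probe set, Atf4 and Asns, that second probe set overlapped. Between arrays numbered 2 and those numbered 1, the difference exceeded that between mTert and control in size in 6 of the 16. These were both Trib3 probe sets, 2 of Xbp1, and 1 each of Atf4 and Asns. The macrophage marker signal also differed between the numbers, and its part in these values was not tested.

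By its estimate of -0.52, Atf3 had the log2 difference of largest size among the 9 members. The limma intervals of Ppp1r15a (-0.57 to 0.022) and Sesn2 (-0.69 to 0.15) nevertheless included -0.52. So did those of Herpud1 probe set 1448185_at (-1.06 to 0.43) and Trib3 probe set 1456225_x_at (-0.53 to 0.78). The intervals of the remaining tested member probe sets did not. Taking 1 probe set per gene, the brightest tested, the 8 others had a median of -0.017, 4 of them higher and 4 lower in sign. For Sesn2 a brighter probe set, called present on no array, was left out. Relative to its mean over the 4 arrays, log2 Atf3 was -0.32 and -0.20 in mTert 1 and 2, against 0.18 and 0.34 in control 1 and 2. The median of the 8 others was -0.051 and -0.065 in mTert, against -0.0070 and 0.057 in control. Atf3 lay below the lowest of the 8 in both mTert arrays and above the highest of them in control 2, but not in control 1, where Sesn2 was higher. The difference of Atf3 less the median of the others was -0.50 on the log2 scale, a description over 9 chosen genes that carries no test.

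**Figure D3:**
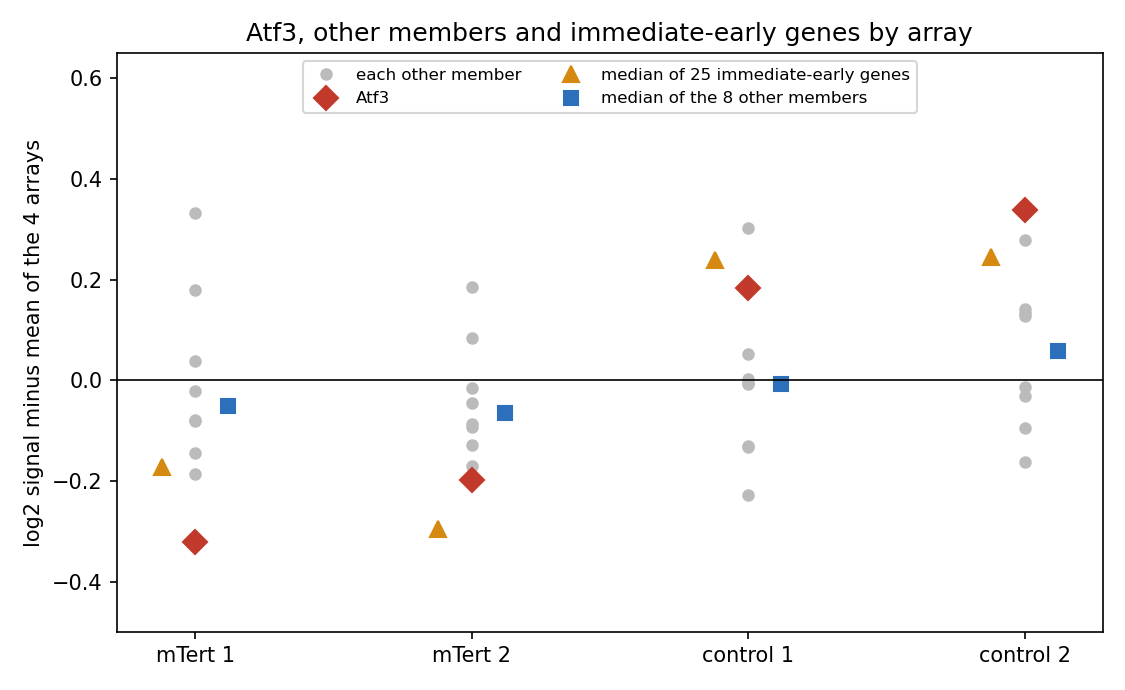
Log2 signal of Atf3 (red diamonds), each of the 8 other members (grey), their median (blue squares) and the median of 25 immediate-early genes (orange triangles) on each array, less the mean of the 4 arrays. Atf3 is at -0.32 and -0.20 in mTert and 0.18 and 0.34 in control, while the median of the other members stays between -0.065 and 0.057.

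Immediate-early genes, by contrast, lay on the same side as Atf3. Of the 25 tested (Atf3 not counted), 23 were lower in sign and 2 higher, with a median log2 difference of -0.49 beside 0.0078 over all 7387 genes. Both mTert signals were below both controls in 21, against 11.6% of all genes, and above in 1, against 13.8%. None passed over all probe sets, and 20 had an unadjusted limma p under 0.05, all lower, against 1.34% of all genes on that side. The 4 with the smallest p were Klf10, with 909.8 and 857.2 in mTert against 1833.1 and 1701.6 in control, Nr4a1 at -0.81 (SE 0.11), Junb at -0.86 (SE 0.12) and Btg2 at -0.78 (SE 0.11), with limma adjusted p of 0.696 for Klf10 and 0.943 for the others. This list was already known to differ in these arrays, so it gives no independent direction.

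The 5 genes whose profile over the 4 arrays was nearest to that of Atf3, by Euclidean distance of centred log2 signals among 11420 other probe sets, were Ccnl1 (distance 0.045), Opn1sw (0.045), Klf13 (0.049), Siah2 (0.061) and Tcf7l1 (0.068). Ccnl1 had signals of 1234.1 and 1337.2 in mTert 1 and 2, against 1788.1 and 2015.8 in control 1 and 2. Opn1sw was dim, with 65.3 and 70.3 in mTert against 92.3 and 106.3 in control. Of the members, Ppp1r15a came nearest, at 0.275 with 146 probe sets closer, then Atf4 at 0.401 and Sesn2 at 0.426. Xbp1 was farthest, at 0.844. With 4 arrays such distances are a description, and all 5 genes had a limma adjusted p of 1.00.

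The wider response was followed in gene lists, with 1 probe set per gene and some genes in more than 1 list. Kinases, phosphatase subunits and the exchange factor that act on eIF2 had a median of -0.015 over 11 tested genes, 4 higher and 7 lower in sign. Both mTert signals lay below both controls in 1 of the 11, against 11.6% of all genes. This was Ppp1r15b, the constitutive counterpart of Ppp1r15a. It had 1383.9 and 1561.2 in mTert, against 1565.3 and 1951.5 in control, a log2 difference of -0.25 (SE 0.14). Subunits of eIF2B followed with Eif2b5 at -0.12 (SE 0.15), Eif2b4 at 0.099 (SE 0.14) and Eif2b1 at 0.11 (SE 0.15).

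ATF4 targets of amino acid and one-carbon metabolism were evenly placed, 9 higher and 7 lower in sign of 16 tested, with a median of 0.0079. Within the serine pathway the genes went different ways. Shmt2, the mitochondrial serine hydroxymethyltransferase, had 1269.0 and 1200.4 in mTert, against 1027.2 and 1010.0 in control, a log2 difference of 0.28 (SE 0.11). Psph, which completes serine synthesis, had 278.5 and 310.8 in mTert, against 392.6 and 361.1 in control, a log2 difference of -0.36 (SE 0.16). Groups did not overlap for either. The other tested probe sets of Shmt2 stood at 0.020 and -0.15 with overlapping groups, so its probe sets disagreed. Phgdh, the first enzyme of the same route, stood at 0.12 (SE 0.098), with its 3 other probe sets between -0.14 and 0.034, and the amino acid transporter Slc38a2 at -0.11 (SE 0.091).

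Other ATF4 targets, regulators and secreted factors, had a median of 0.016 over 15 tested genes, 8 higher and 7 lower in sign. The autophagy gene Map1lc3b stood at 0.19 (SE 0.092), the mTORC1 inhibitor Ddit4 at 0.37 (SE 0.21), Atg5 at -0.22 (SE 0.15) and the stress-induced Nupr1 at -0.13 (SE 0.14). Cytosolic aminoacyl-tRNA synthetases, several of them ATF4 targets, had a median of 0.028 over 18, of which 11 were higher in sign. One gene stood out there, Farsa, a subunit of phenylalanyl-tRNA synthetase, with 386.7 and 372.7 in mTert against 217.9 and 252.6 in control. Its log2 difference was 0.69 (SE 0.17), with a limma p of 0.0061 unadjusted and 1.00 adjusted. Wars, for tryptophan, stood at 0.20 (SE 0.18) with overlapping groups. Its other probe sets stood at 0.29, 0.095 and 0.44, each with both mTert signals above both controls, as in 13.4% of all probe sets. Hars, for histidine, stood at -0.16 (SE 0.16) with its second probe set at 0.11, and Lars, for leucine, at 0.11 (SE 0.12).

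Targets of XBP1 and ATF6, with the sensors of the unfolded protein response, had a median of -0.0066 over 26 tested genes, 13 on each side. Hspa5, the chaperone BiP and a standard marker of endoplasmic reticulum stress, had 8442.8 and 8025.9 in mTert, against 9753.3 and 9941.3 in control. All mTert values were below the controls, with a log2 difference of -0.26 (SE 0.069). Its limma p was 0.0094 unadjusted and 1.00 adjusted. The second Hspa5 probe set stood at -0.16 (SE 0.086), again with separate groups. Derl2, of the degradation machinery, lay on the other side at 0.37 (SE 0.16), as did the disulphide isomerase Pdia4 at 0.19 (SE 0.12), while the cochaperone Dnajb9 stood at -0.17 (SE 0.11).

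Among 16 bZIP genes related to ATF3 and ATF4, mostly of the ATF, CREB and C/EBP families, the median was -0.0087, 8 on each side. Nfil3, a bZIP repressor, differed most by p, with 568.0 and 626.1 in mTert against 859.9 and 962.9 in control. Both mTert values were below both controls, a log2 difference of -0.61 (SE 0.14). Its limma p was 0.0042 unadjusted and 1.00 adjusted. The next were Cebpd at 0.16 (SE 0.17), Creb3 at 0.089 (SE 0.11) and Atf6b at 0.22 (SE 0.28). In the 6 stress response and ATF family lists limma called 0 genes over all probe sets. At an unadjusted limma p under 0.05 there were 4 of 96, Shmt2 and Farsa on the higher side and Hspa5 and Nfil3 on the lower, where all genes gave 0.853% higher and 1.34% lower.

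**Figure D4:**
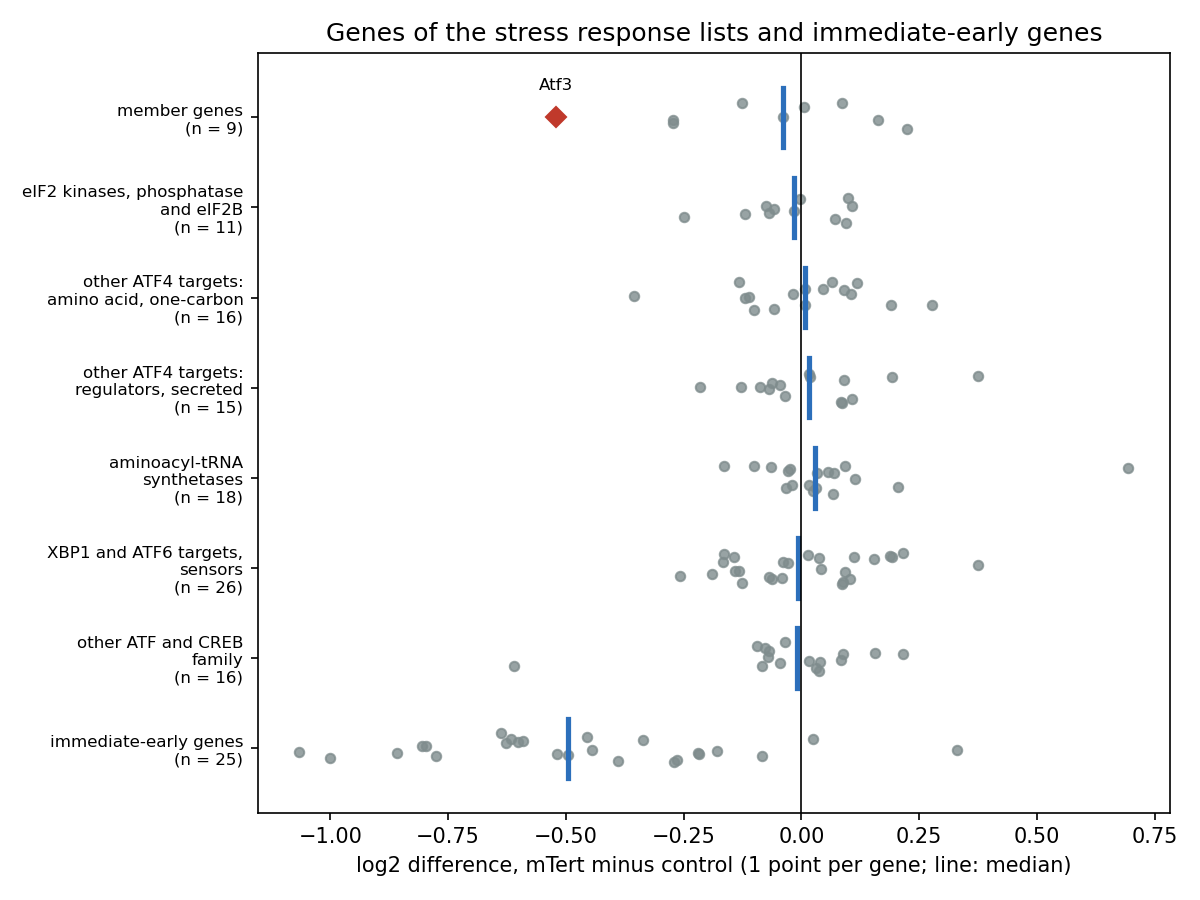
Log2 difference, mTert minus control, of each tested gene of the lists (1 point per gene, line at the list's median). The 6 stress response and ATF family lists centre between -0.015 and 0.028 and the member genes at -0.038, whereas the immediate-early genes centre at -0.49, close to Atf3 (red) at -0.52.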

How the data were processed

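RNA of 4 MEF samples was read on 4 Affymetrix MOE430A arrays and grouped by the sample titles. Per the file headers, the deposited tables hold a signal intensity for each probe set with a present, marginal or absent call and a detection p-value, both made by the authors. Which software summarised the probes is not given here in the labels or headers. Here each array was scaled to a common mean after trimming 2% of probe sets at each end, which moved no array by more than 0.027%, and taken to log2. The signals printed are those deposited. The 64 control probe sets and those present on fewer than 2 of 4 arrays were left out, which left 12396. The comparison used limma 3.58.1 under R 4.3.3, with lmFit and a trended eBayes, and Benjamini-Hochberg adjustment over all of them. The fit was also run on simulated data, whose outcome is not given here. Gene lists were described, without a test, on the brightest tested probe set of each gene. The platform annotation from GEO supplied symbols and gave 1 symbol to 20380 probe sets. Named genes are all members, Tert, the 4 genes of each list with the smallest p and the 5 nearest to Atf3. Members and lists were chosen with earlier results of these data known. Alternatives covered the scaling, the filter on calls, a pseudocount of 32, the trend, a replicate block, the probe set per gene and leaving out each array.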

Additional observations from a re-analysis of the deposited data

How the results depend on the processing

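All 16 member probe sets kept their direction, and none passed the adjusted threshold, under quantile normalization, the signals without further scaling, no filter on calls, log2(signal + 32), eBayes without a trend and a replicate block, as did the 15 that were present on all 4 arrays. The titles share the numbers 1 and 2, and deviations from the group means of same-numbered arrays correlated at 0.37 across probe sets, but nothing in the labels pairs them. With a replicate block 3 probe sets passed on the higher side and 15 on the lower in limma, 0 of them members, and Atf3 had a limma adjusted p of 0.508. Ppp1r15a then joined Atf3 under an unadjusted limma p of 0.05, at 0.025 (adjusted 1.00).

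With 1 array left out limma called 0 probe sets each time. Atf3 then ranged from -0.60 to -0.44 and its difference from the other members from -0.52 to -0.39. These fits leave the array numbers unequal between groups. Signs changed for 1438992_x_at of Atf4 (-0.20 to 0.065), 1433966_x_at of Asns (-0.013 to 0.083), both probe sets of Trib3 (-0.12 to 0.13 and -0.25 to 0.49) and Herpud1 (-0.098 to 0.27 and -0.79 to 0.15), and 3 of Xbp1 (-0.089 to 0.41, -0.18 to 0.0055 and -0.027 to 0.15). List medians ranged from -0.11 to -0.054 for the members, -0.10 to 0.013 for members without Atf3, -0.058 to 0.038 for the eIF2 list, -0.041 to 0.015 for metabolic and -0.018 to 0.073 for other ATF4 targets, -0.00018 to 0.033 for synthetases, -0.065 to 0.0072 for XBP1 and ATF6 targets, -0.088 to 0.012 for the ATF family and -0.55 to -0.41 for immediate-early genes. Averaging all probe sets of a gene gave 0.015 for synthetases and -0.029 for XBP1 and ATF6 targets, which stood at 0.015 with no filter on calls; the cause was not tested. The number of arrays limits the precision.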
